A study of Rattus norvegicus with 119 samples.

Results

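The list comprises 50 genes that drive DNA replication and mitosis, chosen by name as a gauge of proliferation in the rat bladder lining. Of these, 49 have a probe on the array. Mki67, which codes for the proliferation antigen Ki-67, has none among the named probes and gave no value. A further 3 members (Ccne2, Cdc25c and Bub1b) lay in the lowest 25 percent of genes by mean signal and were left out of the tests, so that 46 members were tested among 12713 genes, of 16951 genes on the array. Each gene was read from its probe with the highest mean. By role, the tested members are 7 of 8 G1 cyclins, kinases and E2F factors, 10 of 10 genes of replication licensing and the fork, 4 of 4 of nucleotide supply, 10 of 11 cyclins, kinases, phosphatases and transcription factors of the G2/M transition, and 15 of 17 genes of chromosomes, the spindle, the checkpoint and mitotic exit.

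A cell enters the cycle when D-type and E-type cyclins activate their kinases and release E2F factors, which switch on the genes for DNA replication and nucleotide synthesis. Later, the MuvB complex with B-Myb and FoxM1 switches on the mitotic genes, and their products are destroyed as the cell divides. The urothelium is a slow-cycling epithelium whose umbrella cells are renewed rarely in the undisturbed bladder, and injury is known to bring its basal and intermediate cells into the cycle.

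Male and female Sprague-Dawley rats received daily oral doses of 0.5% methylcellulose alone (vehicle), pioglitazone hydrochloride at 16 (low dose) or 63 (high dose) mg/kg/day, or rosiglitazone maleate at 10 mg/kg/day, and dosing lasted 3, 28 or 90 days. Both drugs are agonists of the nuclear receptor PPAR-gamma. The lining was scraped from the bladder 1 day after the last dose, and its RNA was hybridised to one-colour Agilent arrays. Arrays of a group are numbered samples, each taken here as 1 animal; the labels do not say so outright, and p-values measure the spread between these samples. After 3 arrays marked as failing quality control were set aside, 116 arrays remained in 24 groups of 4 to 5 animals: 30 arrays of vehicle, 28 of pioglitazone at each dose and 30 of rosiglitazone. The animals' ages, and whether animals of the same day were handled together, are not given in the labels, and every animal received methylcellulose, so that there is no untreated group. All values are log2 signals, and a difference of 1 is a 2-fold change in signal. Levels are compared within a gene's probe, never between genes.

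The tissue label was checked against marker genes. The umbrella cell plaque genes Upk1a (lowest 16.381, median 17.684 and highest 18.282 log2 signal) and Upk3a (from 16.352 to 18.563) were bright on all 116 arrays. Markers of the wall beneath varied widely: Actg2 of smooth muscle ranged from 7.54 to 18.835 and Col1a1 of fibroblasts from 8.407 to 17.304. The scrapings are bulk samples, and a smaller number of cycling cells cannot be told apart from less of each RNA per cell. Array medians lay between 6.396 and 6.633, and the median correlation of an array with the others was 0.980. Both arrays under 0.9, high-dose pioglitazone female day 3 replicate 3 (0.817) and low-dose pioglitazone female day 28 replicate 5 (0.861), are named beside the results that rest on them.

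The comparison of each treatment with the vehicle animals of the same sex and day asks whether either drug moved the proliferation genes of the lining. Few members changed. Ccne1, the cyclin E1 gene whose product activates Cdk2 at the entry to S phase, was higher after 90 days of pioglitazone, 1.93-fold at the low and 1.85-fold at the high dose. None of the 39 replication, nucleotide, G2/M and mitotic genes was called at any single day under any treatment when the sexes were averaged. The share of all genes called is given with each day below, and a missing call does not show that a gene was unchanged. A member was called when its adjusted p was under 0.05 (limma, Benjamini-Hochberg over the 12713 genes), and each treatment was compared with the same vehicle animals, so that the treatments' differences share them.

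Ccne1 in vehicle animals at day 90 had a lowest, median and highest log2 signal of 7.260, 7.558 and 7.796 (n = 10). Low-dose pioglitazone animals had 8.106, 8.506 and 8.874 (n = 9). High-dose animals had 7.788, 8.411 and 9.135 (n = 10). All 9 low-dose animals lay above every vehicle animal, and of the high-dose animals only 1, at 7.788, fell just below the highest vehicle animal. The difference was 0.95 ± 0.23 (SE; 95% confidence interval 0.49 to 1.40; adjusted p = 0.0215) at the low dose and 0.89 ± 0.22 (0.45 to 1.33; adjusted p = 0.00723) at the high dose, by limma. Rosiglitazone animals at day 90 had 6.305, 7.938 and 8.837 (n = 10), a range that encloses the vehicle values, and their difference of 0.36 ± 0.22 was not called (adjusted p = 0.458). The low-dose call was lost without male replicate 3 (adjusted p = 0.0673) or male replicate 4 (0.0534) of the low-dose day-90 animals. With the 3 failing arrays included neither dose was called (adjusted p = 0.479 at the low and 0.296 at the high dose).

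**Figure D1:**
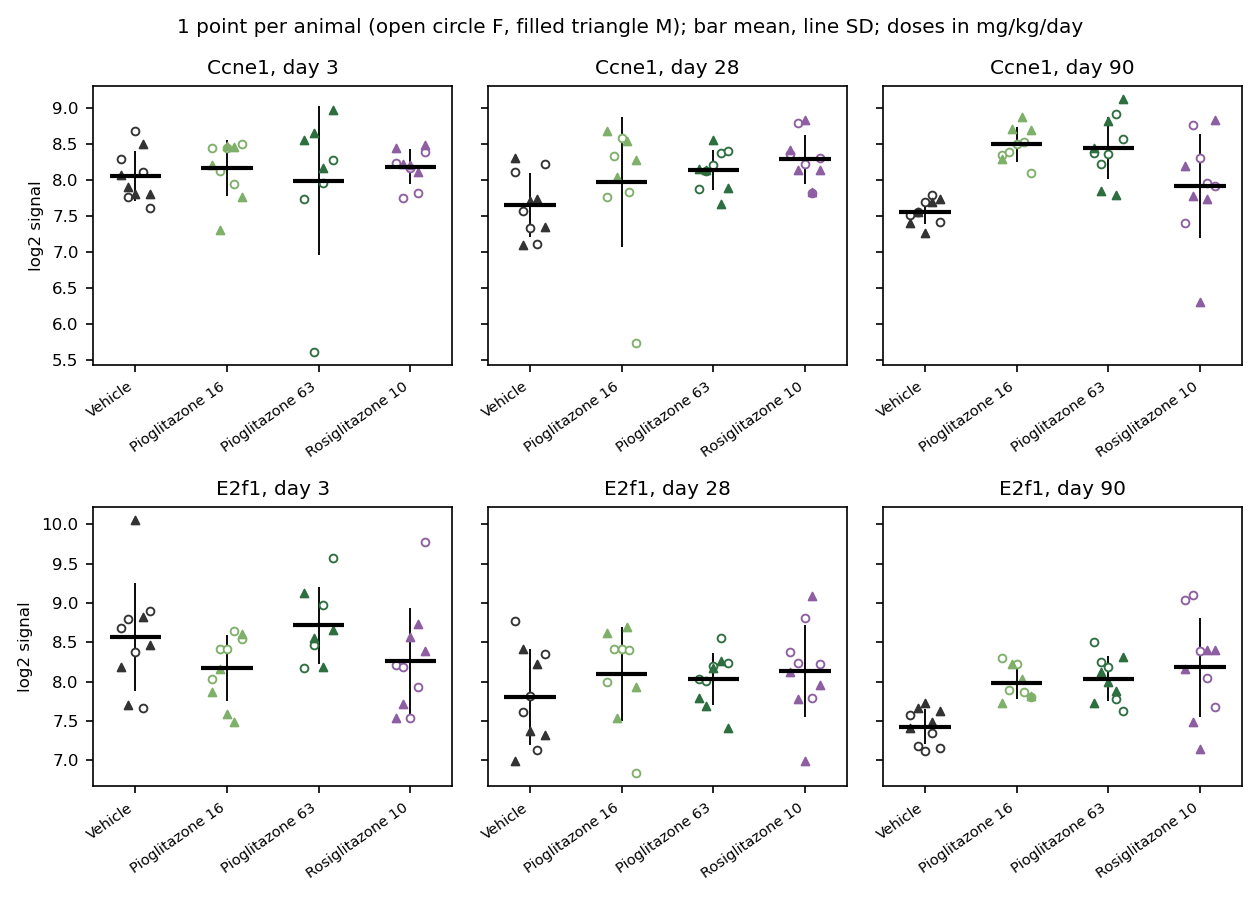
Log2 signal of Ccne1 (top) and E2f1 (bottom) per animal, by treatment (dose in mg/kg/day) and day. Open circles are females, filled triangles males, bars the mean and lines the SD. At day 90 the 9 low-dose pioglitazone animals lie between 8.106 and 8.874 for Ccne1, above all 10 vehicle animals, which lie between 7.260 and 7.796.

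Earlier in dosing Ccne1 was not called in any treatment. At day 3 its medians were 7.988 in vehicle, 8.325 at the low dose, 8.230 at the high dose and 8.217 with rosiglitazone, and all ranges overlapped. At day 28 the medians were 7.638, 8.286, 8.146 and 8.270 in the same order, with differences from vehicle of 0.37 ± 0.23, 0.49 ± 0.22 and 0.64 ± 0.22 (adjusted p = 0.567, 0.697 and 0.156, limma). The vehicle median was lower at each later day, while the pioglitazone medians at day 90 were above those of day 3 at both doses. Whether the Ccne1 effect differed between days was tested with an F test across days, and no member was called in any treatment (limma; 0.00787% of genes called for the low dose, 0.0157% for the high dose and 0.0393% for rosiglitazone). Without adjustment, 8, 2 and 7 members had p under 0.05 in these F tests.

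Averaged over the 3 days and both sexes, Ccne1 was higher with low-dose pioglitazone by 0.48 ± 0.13 (adjusted p = 0.0272) and with high-dose pioglitazone by 0.44 ± 0.13 (adjusted p = 0.0253), and was the only member called in either, against 2.84% and 6.59% of all genes tested. With rosiglitazone its difference of 0.37 missed the threshold (adjusted p = 0.0662, limma). There, 2 members fell: Foxm1, a transcription factor of the mitotic genes, by 0.30 ± 0.08 (adjusted p = 0.0204), and Mcm7, a subunit of the replicative helicase, by 0.21 ± 0.06 (adjusted p = 0.0292), where 5.62% of all genes were called. The high-dose Ccne1 call was lost without high-dose female day 3 replicate 5 (adjusted p = 0.0539), and that of Mcm7 without vehicle replicate 1 of either the female day 3, day 28 or day 90 group or the male day 28 group (adjusted p from 0.0503 to 0.0569). Foxm1 has a second probe that correlated with the first at 0.446 over the arrays, and its call was lost when the probes were averaged (adjusted p = 0.249). The median difference over the 46 members was 0.01 at the low dose, -0.00 at the high dose and -0.00 with rosiglitazone.

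At day 3 the members were on the low side of vehicle with low-dose pioglitazone and rosiglitazone, without any being called. The median member difference was -0.17 with low-dose pioglitazone and with rosiglitazone, beside 0.04 over all genes in both, and -0.07 with high-dose pioglitazone, beside -0.04. At an unadjusted p under 0.05, 10 members were lower and 0 higher at the low dose, 1 lower and 1 higher at the high dose, and 15 lower and 0 higher with rosiglitazone. In these comparisons 0 members passed the adjusted threshold in limma, where 0.0236%, 0.0708% and 0.323% of all genes did. These shares are at the adjusted threshold, and the unadjusted counts cannot be read against them. For the treatment comparisons the share of all genes at an unadjusted p under 0.05 is not given. With rosiglitazone, 8 of the 15 lower members belong to chromosomes and the spindle and 6 to the G2/M group, and none to replication.

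Bub1, a kinase of the spindle checkpoint, had the smallest p with rosiglitazone at day 3. Its lowest, median and highest log2 signals were 5.299, 6.483 and 7.556 in vehicle and 4.863, 5.676 and 7.008 with rosiglitazone, a difference of -0.69 ± 0.23 (adjusted p = 0.177, limma). The groups overlapped over most of their range. A second Bub1 probe, of mean 4.98, correlated with the one used at 0.091 over the arrays. Ube2c, the ubiquitin-conjugating enzyme of mitotic exit (-0.80 ± 0.27), and Nusap1, a spindle microtubule protein (-0.72 ± 0.25), came next and were not called. Without rosiglitazone female day 3 replicate 5, 3 members were called. With low-dose pioglitazone the smallest p belonged to Cdc25b, the phosphatase that activates Cdk1, whose values were 8.548, 10.842 and 12.483 in vehicle and 8.441, 9.402 and 11.004 in treated animals (-1.18 ± 0.37, adjusted p = 0.368). Cenpf, a kinetochore protein (-0.74), and Ube2c (-0.71) followed, and neither was called. With high-dose pioglitazone the 3 smallest p belonged to Foxm1 (-0.41), Mybl2, the gene for B-Myb (0.42), and Cdk4, the partner of D-type cyclins (-0.31), with adjusted p of at least 0.291.

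The markers of the underlying wall had the same sign at day 3 in low-dose pioglitazone and rosiglitazone. Over the 10 fibroblast and matrix genes the median difference from vehicle was -0.81 at the low dose, -0.89 with rosiglitazone and 0.08 at the high dose, with 0 called in each. The smooth muscle genes had medians of -0.61, -0.86 and 0.77 in the same order. Their part in the lower mitotic signals was not tested.

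At day 28 no member was called. Unadjusted, 1 member was higher and 1 lower at the low dose, 2 and 0 at the high dose, and 2 and 3 with rosiglitazone, where limma called 0.346%, 0.558% and 1.72% of all genes. The 3 smallest p at the low dose belonged to Cdk2 (-0.36, adjusted p = 0.163), Rrm1, the large subunit of ribonucleotide reductase (0.40), and Mcm7 (-0.22). At the high dose they belonged to Ccne1, Rrm1 (0.38) and Kif2c, a microtubule depolymerase (-0.45), and with rosiglitazone to Ccne1, Mcm3 of the replicative helicase (0.38) and Foxm1 (-0.32). The median member differences were 0.10, -0.03 and 0.08, beside -0.02, 0.01 and 0.00 over all genes.

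At day 90 Ccne1 was the only member called with pioglitazone, among 0.519% of all genes called at the low and 4.24% at the high dose. Rosiglitazone gave 0 called members among 1.92% of genes, with 2 higher and 2 lower at an unadjusted p under 0.05. E2f1, the transcription factor that Rb holds in check, came nearest in rosiglitazone. Its lowest, median and highest values were 7.122, 7.443 and 7.725 in vehicle and 7.142, 8.270 and 9.103 with rosiglitazone (0.75 ± 0.23, adjusted p = 0.0611, limma). With low-dose and high-dose pioglitazone E2f1 had medians of 7.888 and 8.055, and differences of 0.56 ± 0.24 and 0.61 ± 0.23 that were not called (adjusted p = 0.538 and 0.121). All 9 low-dose animals lay above the vehicle range, from 7.732 to 8.297. Mcm7 (-0.25) and Mybl2 (0.36) followed E2f1 in rosiglitazone and were not called. The median member differences at day 90 were 0.11, 0.06 and 0.06, beside 0.01, -0.00 and -0.04 over all genes.

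**Figure D2:**
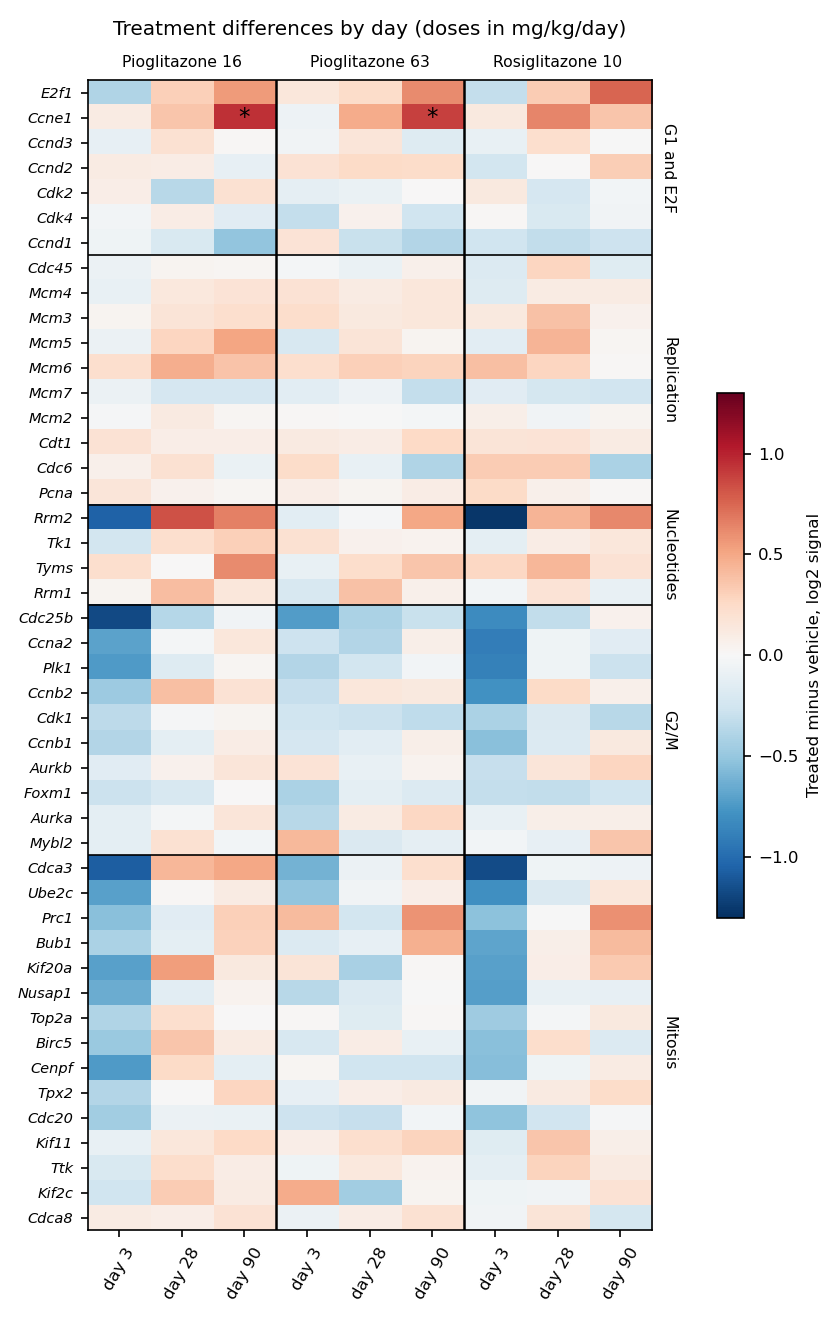
Difference in log2 signal from vehicle (colour; red higher, blue lower in treated animals) for the 46 tested members, by treatment (dose in mg/kg/day) and day, sexes averaged. Genes are grouped by role and asterisks mark calls: only Ccne1 at day 90 with both pioglitazone doses (0.95 and 0.89).

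The usual proliferation markers were not called in any treatment at any day. Top2a, the topoisomerase that untangles chromosomes before mitosis, had vehicle medians of 6.105, 5.259 and 5.313 at days 3, 28 and 90. Its treatment differences lay between -0.46 ± 0.30 (rosiglitazone, day 3) and 0.22 ± 0.31 (low dose, day 28). A second Top2a probe, of mean 5.02, correlated with the one used at 0.471 over the arrays. Mcm2, a helicase subunit loaded at replication origins, had vehicle medians of 9.032, 9.006 and 9.085, and differences between -0.04 ± 0.16 and 0.12 ± 0.16. A second Mcm2 probe, of mean 7.02, correlated with it at -0.224 over the arrays, so these values are those of the chosen probe alone. The ranges of treated and vehicle animals overlapped for both genes at each day: at day 3, for example, Mcm2 ran from 8.662 to 9.731 in vehicle, 8.733 to 9.458 at the low dose, 7.977 to 9.531 at the high dose and 8.663 to 9.838 with rosiglitazone. Pcna, the sliding clamp of DNA polymerase, differed from vehicle by 0.01 ± 0.12 to 0.25 ± 0.12, on the high side in all 9 comparisons, and was called in none (smallest adjusted p = 0.320, limma). At day 90 its median was 10.694 in vehicle, 10.688 at the low dose, 10.868 at the high dose and 10.726 with rosiglitazone. Cdk1, the kinase that starts mitosis, had medians at day 3 of 9.534, 9.557, 9.507 and 9.414 in the same order and at day 90 of 8.934, 8.814, 8.589 and 8.575, and differed by -0.41 ± 0.23 to 0.03 ± 0.24. Ccnb1, its cyclin partner, had medians at day 3 of 6.683, 6.327, 6.636 and 6.237, and differed by -0.54 ± 0.19 (rosiglitazone, day 3; adjusted p = 0.187) to 0.12 ± 0.19. None of these differences passed the test.

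Ccnd1, the cyclin that links growth signals to the cycle, had a vehicle median of 11.091 at day 90, with medians of 10.657 at the low dose, 10.717 at the high dose and 10.712 with rosiglitazone. Its differences there were -0.51 ± 0.23, -0.38 ± 0.22 and -0.27 ± 0.22, none called, and the ranges overlapped. Rrm2, the small subunit of ribonucleotide reductase, whose RNA and protein rise in S phase, was the most spread of the always-named members. At day 3 it had a lowest, median and highest of 8.104, 9.616 and 11.445 in vehicle, 7.399, 8.588 and 9.951 at the low dose, and 6.494, 8.497 and 10.423 with rosiglitazone. Its differences of -1.05 ± 0.48 and -1.27 ± 0.48 were not called (adjusted p = 0.558 and 0.216). At day 90 the sign was the other way (0.65 ± 0.50 at the low dose, 0.50 ± 0.48 at the high dose and 0.62 ± 0.48 with rosiglitazone), again without a call.

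The precision sets what these comparisons could show. Per day, the 95% confidence interval of the difference lay within a 2-fold change in either direction for 32 to 43 of the 46 members. Over the 3 days together it did so for 46 of 46 in each treatment, and within 1.5-fold for 40 at the low dose, 38 at the high dose and 37 with rosiglitazone. Changes in signal larger than these bounds lie outside the intervals of those members. Some members had mean log2 signals not far above the level under which genes were left out. Among them were Cenpf (5.43), Cdt1 (5.47), Mybl2 (5.49) and Top2a (5.53), while Ccnd2 had 11.59. How closely signal follows RNA amount at low signal was not tested, so the intervals bound the change in signal alone.

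**Figure D3:**
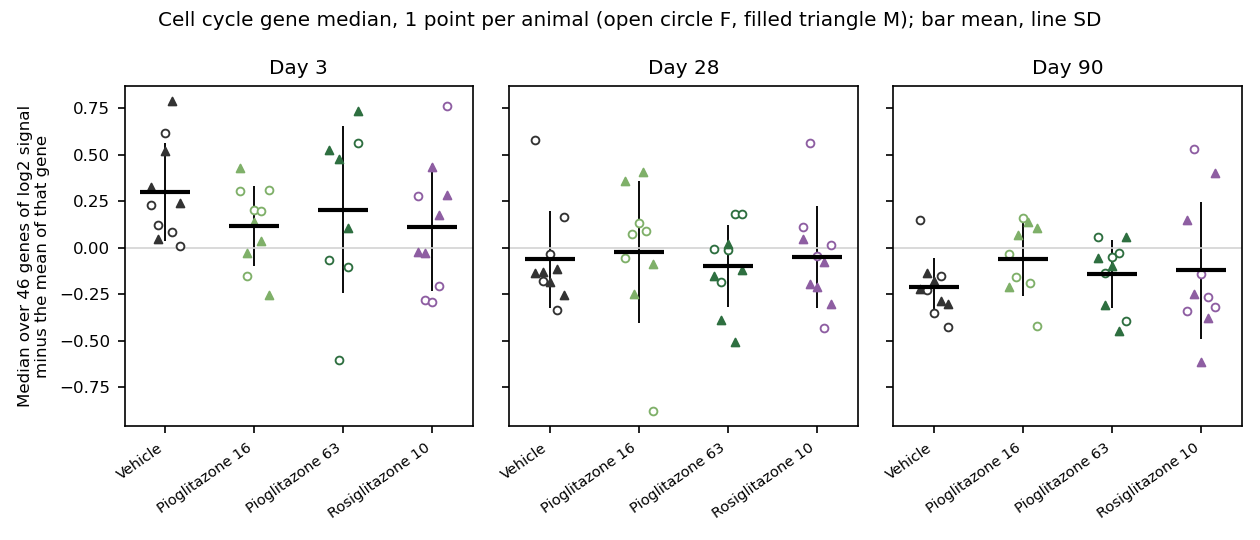
Per animal, the median over the 46 tested members of log2 signal minus that gene's mean over all arrays, by treatment (dose in mg/kg/day) and day. Open circles are females, filled triangles males, bars the mean and lines the SD. The vehicle median is 0.234 at day 3, -0.135 at day 28 and -0.225 at day 90, and treated ranges overlap vehicle at each day.

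As a description of the whole list, the median over the 46 members of each animal's deviation from the gene means was computed. In vehicle its lowest, median and highest were 0.007, 0.234 and 0.785 at day 3, -0.336, -0.135 and 0.577 at day 28, and -0.427, -0.225 and 0.146 at day 90. The medians with the low dose were 0.166, 0.075 and -0.037, with the high dose 0.290, -0.066 and -0.076, and with rosiglitazone 0.076, -0.062 and -0.255. Every arm had its highest median at day 3. The ranges of the arms overlapped at each day, and the low-dose animal at -0.876 on day 28 is the array of median correlation 0.861.

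Doses of pioglitazone were compared directly, as the same compound given at 16 and at 63 mg/kg/day. No member was called at day 3, 28 or 90, where 0% of all genes passed (limma, Benjamini-Hochberg). Unadjusted, 8 members were higher and 0 lower at the high dose on day 3, 1 higher and 3 lower on day 28, and 0 on day 90. The smallest p on day 3 belonged to Mybl2 (0.55), Prc1, which bundles microtubules of the central spindle (0.95), and Cenpf (0.76), with adjusted p = 0.339, and without high-dose female day 3 replicate 1 there were 2 calls. On day 28 Kif20a, a kinesin of cytokinesis (-0.97), Kif2c (-0.78) and Cdk2 (0.27) had adjusted p of 0.725, and on day 90 Mcm5 (-0.48), Cdk2 and Tk1 had adjusted p of 1. Rosiglitazone was given at another dose, and its values stand beside those of pioglitazone without a test.

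Within a single sex and day, 16 of the 18 treatment comparisons had no called member. In these limma called few genes of any kind: in females 0%, 0.0393% and 0.0393% at the low dose at days 3, 28 and 90, 0.0629% and 1.25% at the high dose at days 28 and 90, and 0.0708% and 0.362% with rosiglitazone at days 3 and 28. In males the shares at days 3, 28 and 90 were 0.0157%, 0.149% and 0.173% at the low dose, 0.102%, 0.212% and 0.621% at the high dose, and 0.0708%, 1.01% and 0.0315% with rosiglitazone. High-dose pioglitazone in females at day 3 had 3, among 8.46% of all genes called. Rrm1 was lower, at 7.472, 6.749, 6.557, 6.625 and 6.175 in the 5 vehicle females and 5.713, 5.345, 5.788 and 5.941 in the 4 treated females, with no overlap (-1.02, adjusted p = 0.0163). Mybl2 was higher (0.88, adjusted p = 0.0254): the treated females had 5.811, 8.039, 5.382 and 5.655 against 5.163 to 5.438 in vehicle, so that the animal at 8.039 was far above the others. Foxm1 was lower (-0.68), at 6.837, 5.336, 6.549 and 6.969 against 6.863 to 7.303. The animal at 8.039 for Mybl2 and at 5.336 for Foxm1 is replicate 3, the array of median correlation 0.817. Without it Rrm1 differed by -0.90 (adjusted p = 0.302), Mybl2 by 0.27 (0.748) and Foxm1 by -0.32 (0.678), and none was called. None was called either with only the groups compared in the fit. A second Mybl2 probe, of mean 5.01, correlated with the one used at 0.236 over the arrays.

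Males of the same dose and day had the opposite sign for Rrm1, from 6.158 to 6.867 in treated animals against 5.302 to 6.577 in vehicle. The difference of the effect, female minus male, was -1.61 (adjusted p = 0.0120, limma), among 5.26% of genes called, and it was lost without the female of replicate 3 (0.0571) or without vehicle male day 3 replicate 3 (0.0568). Any difference in Rrm1 between vehicle females and vehicle males at day 3 enters it. The 8 other tests of a sex difference in the treatment effect called 0 members and 0% to 0.0865% of genes. Rosiglitazone in females at day 90 had 1 called member among 2.45% of genes: E2f1 was 9.034, 9.103, 8.385, 8.051 and 7.675 in treated females and 7.573, 7.187, 7.122, 7.348 and 7.155 in vehicle females. The groups did not overlap, and the difference was 1.17 (adjusted p = 0.0285). The call was lost in 9 of 24 alternative settings, among them those without vehicle female day 90 replicate 2, 3, 4 or 5 or rosiglitazone female day 90 replicate 1, 2 or 3 (adjusted p from 0.0547 to 0.132). Ccne1 at day 90 differed by 0.78 in females and 1.12 in males at the low dose and by 0.90 and 0.88 at the high dose, and within a single sex it was not called.

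Among vehicle animals the sexes did not differ in any member at the adjusted threshold. Limma called 0.149% of all genes over the 3 days, 0.968% at day 3, 0.0236% at day 28 and 0% at day 90, and 0 members in each. Unadjusted, 1 member was higher in females and 0 lower over all days. Cdk2 (0.19, adjusted p = 0.469), Cdca8 of the chromosomal passenger complex (0.29) and Mcm5 (-0.36) had the smallest p there. At day 3, 1 member was higher in females and 2 lower unadjusted. The higher one was among the 4 nucleotide supply genes, whose largest difference was 0.72 (smallest adjusted p = 0.140, limma).

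More members were called between the days of dosing, in animals that received vehicle alone. Each gene that was called had less RNA at the later day: Rrm2, of nucleotide supply, was 4.02-fold lower at day 28 and 5.87-fold lower at day 90, Cdca3, a mitotic-entry gene, 4.20-fold and 5.07-fold lower, and Cdc25b 4.09-fold and 4.36-fold lower. At day 28, 12 of 46 members (26.1%) had fallen and 0 had risen, beside 6.45% of all genes called, 3.83% lower. At day 90, 19 had fallen and 0 had risen, beside 5.98% of all genes, 2.72% lower (limma, Benjamini-Hochberg). With the failing arrays included these counts were 5 and 7, and with only the groups compared in the fit 3 and 15. The median member difference from day 3 was -0.43 at day 28 and -0.51 at day 90, beside 0.05 over all genes in both. Between day 28 and day 90, 0 members were called, with 0 higher and 3 lower unadjusted (Aurkb -0.42, Tk1 -0.35, Cdk2 -0.22), and 0.0315% of all genes. The day-3 vehicle animals enter both differences and also the treatment comparisons of day 3. Day of dosing, the animals' age and any handling shared by the animals of a day cannot be told apart.

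**Figure D4:**
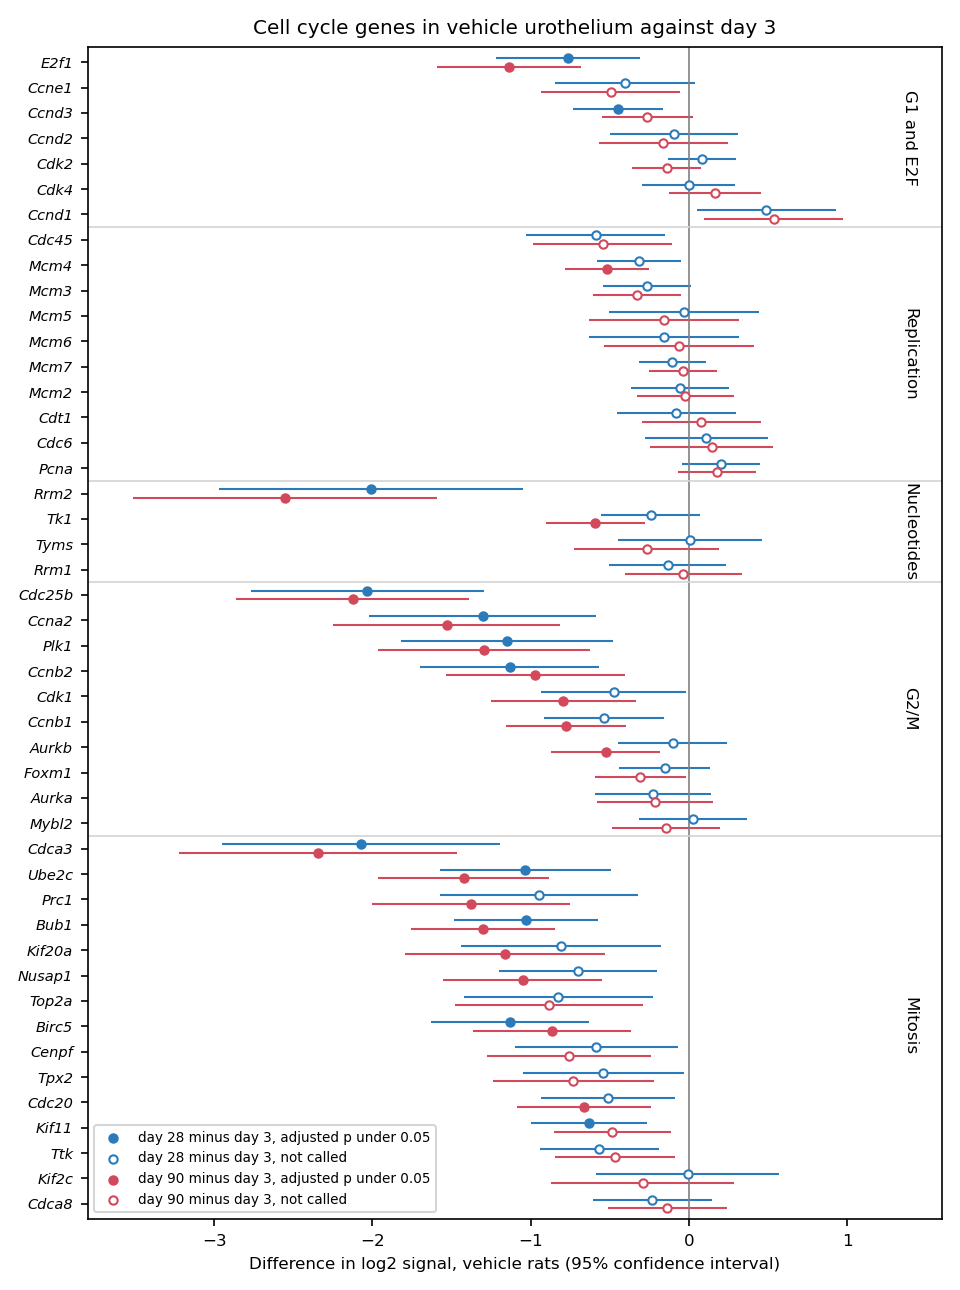
Difference in log2 signal from day 3 in vehicle animals for the 46 tested members, by role, with 95% confidence intervals; blue is day 28, red day 90, and filled points are calls. Of the 15 mitosis genes 5 are called lower at day 28 and 8 at day 90, of the 10 replication genes 0 and 1. Of all genes tested, 6.45% and 5.98% were called in either direction.

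Among the G2/M genes, 4 of 10 fell at day 28 (median -0.51) and 7 of 10 at day 90 (median -0.79). Cdc25b had a lowest, median and highest of 8.548, 10.842 and 12.483 at day 3, 7.746, 8.290 and 10.561 at day 28, and 7.725, 8.623 and 9.484 at day 90. Of the 10 day-3 animals, 7 lay above every day-28 animal and 8 above every day-90 animal. Its differences from day 3 were -2.03 ± 0.37 (adjusted p = 0.000211) and -2.12 ± 0.37 (adjusted p = 6.89e-05, limma). Ccna2, cyclin A2 of S phase and G2, had medians of 7.399, 5.713 and 5.667 at the 3 days, with -1.30 ± 0.36 and -1.53 ± 0.36, and some late animals as high as the day-3 median, up to 7.955 at day 28. Plk1, the polo kinase of mitotic entry (-1.15 and -1.30), and Ccnb2, cyclin B2 (-1.13 and -0.97), fell at both days. Cdk1 had medians of 9.534, 9.191 and 8.934 and Ccnb1 of 6.683, 6.189 and 5.921. Both were called at day 90 alone (Cdk1 -0.79 ± 0.23, adjusted p = 0.0253; Ccnb1 -0.78 ± 0.19, adjusted p = 0.00664), where Aurkb, the kinase of the chromosomal passenger complex, was called too (-0.53, adjusted p = 0.0497), a call lost in 21 of 33 alternative settings. Foxm1, Aurka and Mybl2 were not called at either day, with differences from -0.31 to 0.03.

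Among the 15 genes of chromosomes, spindle, checkpoint and exit, 5 fell at day 28 (median -0.70) and 8 at day 90 (median -0.87). Cdca3 had a lowest, median and highest of 7.008, 8.390 and 9.814 at day 3, 5.060, 6.450 and 8.580 at day 28, and 4.880, 5.989 and 8.038 at day 90. Bub1 had medians of 6.483, 5.438 and 5.133, and 7 of the 10 day-3 animals lay above every day-90 animal (-1.30 ± 0.23, adjusted p = 7.83e-05). Ube2c had medians of 7.556, 6.432 and 5.958 (-1.42 ± 0.27 at day 90). All 3 were called at both days, and their ranges overlapped between days. Birc5, which codes for survivin, fell by 1.13 at day 28 and by 0.87 at day 90, and Kif11, the motor that pushes spindle poles apart, was called at day 28 alone (-0.63, adjusted p = 0.0270). Prc1 (-1.38 ± 0.32), Nusap1 (-1.05 ± 0.25), Kif20a (-1.16) and Cdc20, an activator of the anaphase-promoting complex (-0.66, adjusted p = 0.0452), were called at day 90 alone, Cdc20 with a call lost in 19 of 34 alternative settings. Top2a had a lowest, median and highest of 4.944, 6.105 and 7.300 at day 3 and 4.356, 5.313 and 6.158 at day 90, and its -0.88 ± 0.30 just missed the threshold (adjusted p = 0.0581). Ttk, Cenpf, Tpx2, Kif2c and Cdca8 were not called at either day, with differences from -0.76 to -0.01.

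Nucleotide supply was split. Rrm2 had a lowest, median and highest of 8.104, 9.616 and 11.445 at day 3, 5.366, 7.714 and 10.348 at day 28, and 6.100, 7.207 and 8.662 at day 90, and 8 of the 10 day-3 animals lay above every day-90 animal. It fell by 2.01 ± 0.48 at day 28 (adjusted p = 0.00646) and by 2.55 ± 0.48 at day 90 (adjusted p = 0.000285). A second Rrm2 probe, of mean 5.46, correlated with the one used at 0.413 over the arrays, so these sizes are those of the chosen probe. Tk1, thymidine kinase, fell at day 90 (-0.59, adjusted p = 0.0141; medians 9.865, 9.413 and 9.177), while Tyms, thymidylate synthase (-0.27), and Rrm1 (-0.03) were not called.

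Only 10 replication licensing and fork genes were tested, so a count of 0 or 1 is near the share over all genes (6.45% called at day 28 and 5.98% at day 90). At day 28 0 of 10 were called (2 lower unadjusted, median -0.09) and at day 90 1 of 10 (median -0.05). That gene was Mcm4, a helicase subunit, with medians of 9.690, 9.227 and 9.110 and a difference of -0.52 (adjusted p = 0.0108). Mcm2 had a lowest, median and highest of 8.662, 9.032 and 9.731 at day 3 and 8.852, 9.085 and 9.338 at day 90 (-0.02 ± 0.16, confidence interval -0.33 to 0.29). Pcna was on the other side, from 9.839, 10.595 and 11.084 at day 3 to 10.515, 10.694 and 11.029 at day 90 (0.18 ± 0.12, adjusted p = 0.393). Second probes of Mcm4 (mean 5.39) and Mcm2 (mean 7.02) correlated with those used at -0.041 and -0.224 over the arrays. The other 7 members, Cdc45, Cdc6, Cdt1, Mcm3, Mcm5, Mcm6 and Mcm7, differed at day 90 by -0.54 to 0.14, none called. The difference between the replication and the mitotic genes was itself not tested.

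Of the G1 genes, E2f1 was called lower at both days: its lowest, median and highest were 7.668, 8.574 and 10.054 at day 3, 6.993, 7.715 and 8.768 at day 28, and 7.122, 7.443 and 7.725 at day 90, with -0.77 ± 0.23 (adjusted p = 0.0296) and -1.14 ± 0.23 (adjusted p = 0.000682). The day-28 call was lost in 13 of 34 alternative settings, and with the fibroblast covariate the difference was -0.42 (adjusted p = 0.366). At day 90 the 10 animals were tightly grouped, and 8 of the 10 day-3 animals lay above all of them. A second E2f1 probe, of mean 5.80, correlated with the one used at 0.567 over the arrays. Ccnd3, a D-type cyclin, fell by 0.45 at day 28 (adjusted p = 0.0434) and was not called at day 90 (-0.26). Ccne1 had a day-90 difference of -0.50 ± 0.22 (adjusted p = 0.164), although 8 of the 10 day-3 animals lay above every day-90 animal. Ccnd1 was the member with the largest positive difference, 0.49 ± 0.22 at day 28 and 0.54 ± 0.22 at day 90 (adjusted p = 0.151 and 0.126), with a wide day-3 range of 9.232 to 11.853 and a day-90 range of 10.540 to 11.535. Cdk2, Cdk4 and Ccnd2 differed by -0.16 to 0.16 and were not called. The 3 members left out of the tests had vehicle medians at days 3, 28 and 90 of 5.139, 4.868 and 4.905 for Ccne2, 5.043, 4.839 and 5.235 for Cdc25c, and 5.538, 4.654 and 4.758 for Bub1b.

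**Figure D5:**
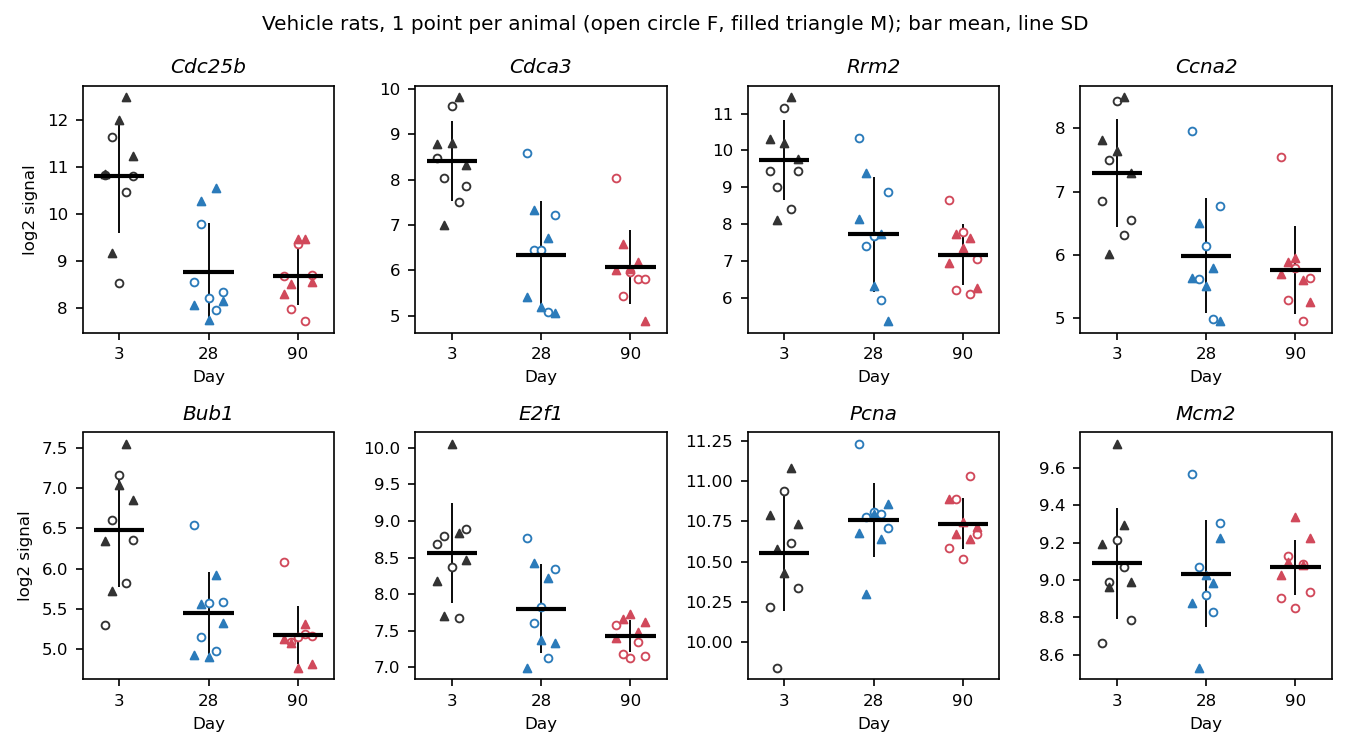
Log2 signal per vehicle animal at days 3, 28 and 90 for 8 members; open circles are females, filled triangles males, bars the mean and lines the SD, and each panel has its own vertical scale. Cdc25b, Cdca3, Rrm2, Ccna2, Bub1 and E2f1 are higher at day 3, with medians such as 10.842, 8.290 and 8.623 for Cdc25b, while Pcna and Mcm2 overlap throughout.

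Other cells also moved between these days. Of the 10 fibroblast and matrix genes tested, 6 fell at day 28 (median -1.72; Col6a3 -1.68, Col1a1 -2.15, Col1a2 -2.03) and 5 at day 90 (median -1.28). Their mean log2 signal per animal ranged from 8.752 to 12.376 at day 3, 7.944 to 10.478 at day 28 and 7.753 to 10.403 at day 90. The 3 erythrocyte genes fell at both days (medians -2.42 and -2.80), as did 2 of 5 adipocyte genes at day 28 (Retn -3.29, Adipoq -3.13). Of the 9 smooth muscle genes 0 were called at either day (medians -1.49 and -1.32), and the 4 skeletal muscle genes had medians of -0.94 and -1.37 with 0 called. Of the 14 urothelial genes 3 rose at each day, with medians of 0.44 and 0.40 (Upk1a 0.50 at day 28, Gata3 0.79 at day 90). Of the 9 leukocyte genes 1 rose at day 90 (Cd74 0.97), and of the 7 endothelial genes 1 (Tie1). With the fibroblast mean as a covariate, an alternative chosen after seeing the data, 10 members were called lower at day 28 and 21 at day 90, with median differences of -0.45 and -0.62. At day 28 the calls of Rrm2 and Ccna2 (adjusted p = 0.0644 for both), E2f1 (-0.42, adjusted p = 0.366), Ube2c (0.0529) and Ccnd3 (0.0867) were then lost. At day 90 those of Prc1 (0.0671), Mcm4 (0.0634), Aurkb (0.0799) and Cdc20 (0.135) were lost. Whether the cycling cells were urothelial or stromal was not tested.

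The calls between days were more numerous in vehicle males than in vehicle females. In males 10 members fell at day 28 and 14 at day 90, where limma called 2.34% and 3.43% of all genes (1.67% and 1.74% lower). In females 1 fell at day 28 (Cdc25b, -1.88, adjusted p = 0.0472, lost in 18 of 24 alternative settings), and 0 at day 90, where 17 were lower unadjusted. All-gene shares there were 1.31% and 0.244% (0.669% and 0.11% lower). Unadjusted, 612 of the 12713 genes were lower at day 90. Bub1 shows the male values: 6.34, 5.721, 7.036, 7.556 and 6.85 at day 3 and 5.119, 5.071, 4.764, 5.316 and 4.808 at day 90, with no overlap (-1.68 ± 0.32, adjusted p = 0.000713). In females Bub1 was 5.299, 6.607, 7.165, 5.821 and 6.359 at day 3 and 6.077, 5.083, 5.147, 5.191 and 5.163 at day 90, and the groups overlapped. The difference between the sexes was tested and no member was called (smallest adjusted p = 0.242 at day 28; 0.0157% of genes called), although 9 members were less lowered in females at an unadjusted p under 0.05 and 0 the other way. The male count at day 28 became 18 without vehicle male day 3 replicate 2, 3 without replicate 3 and 1 without replicate 4, and, without a male of day 28, 4 (replicate 1), 5 (replicate 3) or 3 (replicate 5). At day 90 it became 2 without day 3 replicate 3, 4 without day 3 replicate 4, and 7 to 9 without any single male of day 90. With only the groups compared in the fit the male counts were 0 and 0, and with the failing arrays included 2 and 1. With both sexes averaged, leaving out 1 animal at a time gave 8 to 20 members at day 28, the 20 without vehicle male day 3 replicate 2, and 14 to 23 at day 90.

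Treated animals were compared between days in a fit added after the data had been seen. High-dose pioglitazone animals had 16 members lower at day 28 and 12 at day 90 than at day 3, and 0 higher, beside 16.3% and 8.09% of all genes (5.65% and 2.3% lower). Prc1 (-1.60 ± 0.33, adjusted p = 0.00143), Cdc25b (-1.71 ± 0.39) and Kif20a (-1.40 ± 0.34) led at day 28, and Tk1 (-0.75 ± 0.17, adjusted p = 0.00275), Cdc25b (-1.68 ± 0.39) and Mcm4 (-0.56 ± 0.14) at day 90. With the failing arrays included Mcm4 had the other sign at day 90 (0.38). With only the groups compared in the fit the counts were 8 and 3. The day-28 count was 10 without high-dose female day 3 replicate 3 or male day 3 replicate 4 and 9 without female day 3 replicate 5, and the day-90 count 20 without female day 3 replicate 1. Low-dose animals had 3 members lower at day 28, Cdc25b (-1.23, adjusted p = 0.0364), Cdk2 (-0.36) and Bub1 (-0.74), and 0 at day 90, beside 6.73% and 0.983% of genes (4.25% and 0.448% lower). That count was 0 without low-dose male day 28 replicate 3 or 4 or male day 3 replicate 1. It was 1 without female day 28 replicate 1 or 5 (the latter the array of median correlation 0.861), female day 3 replicate 1, 2 or 4, male day 28 replicate 2, or male day 3 replicate 2 or 5. Rosiglitazone animals had 1 at day 28, Cdc25b (-1.54 ± 0.37, adjusted p = 0.00956), which was lost without female day 3 replicate 5, and 0 at day 90, beside 2.15% and 0.873% (1.3% and 0.661% lower). Cdc25b was thus called lower at day 28 than at day 3 in the vehicle animals and in each of the 3 treated arms, but with the fibroblast covariate the treated calls were lost. Its differences were then -0.80 at the high dose (adjusted p = 0.149), -0.49 at the low dose (0.281) and -0.84 with rosiglitazone (0.0595), beside -1.21 in vehicle (0.0158).

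Markers of other cells moved between the same days in treated animals. In high-dose animals at day 28, 8 of 10 fibroblast and matrix genes were lower (median -1.87), 3 of 3 erythrocyte genes were lower (median -1.98), and 4 of 9 leukocyte genes (median 0.49) and 3 of 14 urothelial genes (median 0.41) were higher. At day 90, 3 of 10 fibroblast genes (median -1.53) and 3 of 3 erythrocyte genes were lower. At day 28 the fibroblast genes had medians of -1.60 in low-dose animals (2 lower) and -1.50 in rosiglitazone animals (1 lower), and 3 and 2 of the erythrocyte genes were lower. The 9 smooth muscle genes had day-28 medians of -2.87, -2.18 and -1.66 at the high dose, at the low dose and with rosiglitazone, with 0 called. With the fibroblast covariate, 5 members were lower in high-dose animals at day 28 and 8 at day 90, and neither Prc1 at day 28 (-1.01, adjusted p = 0.0642) nor Cdc25b at day 90 (-0.77, adjusted p = 0.159) was called.

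The promoters of these genes carry known cell cycle elements, and 4 are shown, picked after the results were seen. Prc1 and Cdk1, both called lower in vehicle at day 90 alone, carry the elements of mitotic genes. Cdc25b, called lower at day 28 in every arm, has a CCAAT box alone. Ccne1, called higher with pioglitazone, has none of the motifs searched. A link between motifs and these differences was not tested. The windows are from RefSeq (build GRCr8), 250 bases before to 50 after the annotated start, and 38 of the 50 members matched one. Printed are the 250 bases before the start, 5′ to 3′ on the gene's strand. Capitals mark a CHR (TTTGAA or TTCAAA, the cell cycle genes homology region bound by the MuvB complex), a CCAAT box (CCAAT or ATTGG, bound by NF-Y) or an E2F motif (TTTCCCGC, TTTGGCGC, TTTCGCGC, TTTGCCGC or the complement of one). Searches covered both strands, and no letters are shared between motifs in the stretches shown.
Prc1, chr1:143659231-143659480, plus strand: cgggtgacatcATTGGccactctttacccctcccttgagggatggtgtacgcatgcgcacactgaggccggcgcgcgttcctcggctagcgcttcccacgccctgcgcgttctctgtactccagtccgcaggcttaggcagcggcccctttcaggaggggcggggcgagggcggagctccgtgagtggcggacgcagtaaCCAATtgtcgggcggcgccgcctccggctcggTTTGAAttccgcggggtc
Cdk1, chr20:19265043-19265292, plus strand: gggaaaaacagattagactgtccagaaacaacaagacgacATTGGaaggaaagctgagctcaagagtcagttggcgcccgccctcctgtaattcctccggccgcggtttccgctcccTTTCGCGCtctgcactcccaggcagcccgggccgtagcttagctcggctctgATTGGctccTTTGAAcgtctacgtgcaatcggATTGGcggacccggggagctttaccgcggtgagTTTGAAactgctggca
Cdc25b, chr3:138859923-138860172, plus strand: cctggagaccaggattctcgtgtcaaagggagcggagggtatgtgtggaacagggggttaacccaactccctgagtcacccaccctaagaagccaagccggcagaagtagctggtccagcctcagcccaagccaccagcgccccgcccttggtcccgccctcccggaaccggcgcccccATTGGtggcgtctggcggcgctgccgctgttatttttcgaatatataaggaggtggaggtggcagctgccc
Ccne1, chr1:99927910-99928159, minus strand: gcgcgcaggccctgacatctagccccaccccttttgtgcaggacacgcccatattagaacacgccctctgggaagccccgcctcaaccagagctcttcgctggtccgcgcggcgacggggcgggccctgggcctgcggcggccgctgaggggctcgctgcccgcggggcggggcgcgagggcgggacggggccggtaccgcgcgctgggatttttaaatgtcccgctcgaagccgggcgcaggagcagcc
Counted in bases from the start, Prc1 has its CHR at -18 and CCAAT boxes at -50 and -239. Cdk1 has CHRs at -72 and -16, CCAAT boxes at -210, -81 and -49 and an E2F motif at -133.

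Over the windows of 300 bases, 15 of 38 members held a CHR (39.5%), 27 a CCAAT box (71.1%), 13 both (34.2%) and 8 an E2F motif (21.1%), beside 18.3%, 37.5%, 7.4% and 2.1% of all 33469 RefSeq promoter windows. In the 14670 windows of genes on the array the shares were 15.2%, 37.6%, 6.3% and 3.2%. Of the 19 members lower in vehicle at day 90 than at day 3, 13 had a window. Ccna2, E2f1, Rrm2, Mcm4, Aurkb and Ube2c had none, so the counts could differ with them. Among the 13 windows, 7 held a CHR together with a CCAAT box and 1 an E2F motif. Among the 22 windows of the other tested members, 4 held both and 7 an E2F motif, the latter in Mcm2, Mcm3, Mcm5, Mcm6, Mcm7, Cdt1 and Tyms. These are counts of letters in a window, given as a description, and no binding was measured.

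Other genes of the cycle, 102 tested from a list of replication factors, mitotic genes, E2F and MuvB members and CDK inhibitors, were also mostly on the low side with time. In vehicle 2 were higher and 16 lower at day 28 (17.6% called, beside 6.45% of all genes). At day 90 2 were higher and 18 lower (19.6%, beside 5.98% of all genes). Of all 12713 genes, 487 and 346 were lower at these days. At day 28, 14 of the lower were among 46 mitotic genes and 1 among 36 of replication (2.78%). The difference between these lists was not tested. Knl1, a kinetochore scaffold (-0.98 ± 0.18 and -1.15 ± 0.18), Kif22, a chromosome-arm kinesin (-1.97 ± 0.42 and -2.14 ± 0.42), and Spc25 of the kinetochore (-1.48 ± 0.33 and -1.61 ± 0.33) fell at both days. Cdkn2d, an inhibitor of Cdk4 and Cdk6, fell too (-0.62 ± 0.14 and -0.79 ± 0.14), as did Fen1, a flap endonuclease of replication (-0.53 ± 0.11 and -0.55 ± 0.11), and Knstrn, a spindle protein (-1.39 ± 0.33 and -1.64 ± 0.33). Cdkn1c, the p57 inhibitor, rose at day 90 (1.51 ± 0.30, adjusted p = 0.00051), and Zwint, which docks the checkpoint to the kinetochore, rose at both days (0.69 ± 0.15 and 0.67 ± 0.15).

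Against vehicle, Zwint was higher over all days with low-dose pioglitazone (0.41 ± 0.09, adjusted p = 0.00132), high-dose pioglitazone (0.34 ± 0.09) and rosiglitazone (0.29 ± 0.08), and at day 3 with rosiglitazone (0.70 ± 0.15, adjusted p = 0.00839), where Knl1 was lower (-0.76 ± 0.18, adjusted p = 0.0359). Kifc1, a minus-end kinesin, was lower with high-dose pioglitazone at day 90 (-0.97 ± 0.20, adjusted p = 0.000906) and over all days (-0.56 ± 0.12). High-dose pioglitazone also had Fen1 higher (0.22 ± 0.07) and Pttg1, securin, lower (-0.52 ± 0.17) over all days, and rosiglitazone had Mcm8 higher (0.21 ± 0.07). The inhibitors Cdkn1a (p21), with differences from vehicle of -0.63 to 0.02 at single days, and Cdkn1b (p27), with -0.53 to 0.29, were not called in any treatment (smallest adjusted p at a single day 0.269, limma), nor over all days, where Cdkn1a with rosiglitazone came nearest (-0.46, adjusted p = 0.0857). Between days in vehicle they differed by -0.13 to 0.09 and were not called.

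Cell type markers are given beside the Ccne1 calls. With high-dose pioglitazone at day 90, where Ccne1 was called, 5 of 9 leukocyte genes were lower (median -0.65; Cd74 -1.12), 0 of 10 fibroblast genes were called (median -0.27) and the 14 urothelial genes had a median of 0.17 with 0 called. With the low dose at day 90, 0 genes of the leukocyte (median -0.39), fibroblast (median -0.60) and urothelial (median 0.21) lists were called. The part of these cells in the Ccne1 difference was not tested beyond the covariate fit, in which Ccne1 at day 90 was called at both doses (adjusted p = 0.0224 at the low and 0.00413 at the high dose) and the all-day low-dose call was lost (adjusted p = 0.0954).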

How the data were processed

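The deposited values are log2 signals per probe, 1 column per array, made by the authors; limma is the tool named in the submitters' processing notes, and the background correction and normalisation are not given in the sources used here. Of 30367 probes, 20369 carry 1 gene symbol in the platform annotation and 9998 none. By RefSeq, 17245 probes were matched and 2887 symbols updated. The probe with the highest mean stood for each of 16951 genes (3091 had several), and the lowest 25 percent by mean (log2 signal under 5.26) were left out. Of 119 arrays, 3 marked as failing quality control were not used. The number of arrays per group limits the precision.

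One limma model (version 3.58.1, R 4.3.3) with a mean for each of the 24 groups of sex, treatment and day was fitted to the 12713 genes, with a trended, moderated variance (92 residual degrees of freedom) and Benjamini-Hochberg adjustment over all genes, called at 0.05. Effects are means over the sexes unless a sex is named. The model was tested on simulated data. Values were summarised in Python 3.11.15 with pandas 2.3.3 and numpy 2.4.6, and drawn with matplotlib 3.10.9.

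Named throughout were Mki67, Top2a, Cdk1, Ccnb1, Ccnd1, Mcm2, Pcna and Rrm2, then per comparison up to 10 called members or, with none, the 3 of smallest p, up to 6 other called cell cycle genes, Cdkn1a and Cdkn1b; members outside this rule were named after their values were seen. The members and lists were chosen with earlier results of these data known. Replicate numbers were not used as pairs, and whether they pair the animals was not settled. In 0 of 18 comparisons did every same-numbered pair correlate over 0.1 in its deviations from the group means (mean 0.064 for same and -0.014 for different numbers). Single comparisons ran from 0.33 beside -0.061 (high-dose males, day 28) to -0.197 beside 0.062 (low-dose males, day 3). In high-dose females at day 90 every same-numbered pair was above 0 (mean 0.323 beside -0.082). Comparisons of treated animals between days, the sex difference of the vehicle change, and 3 alternatives (leaving out the 2 or the 9 arrays that correlate least with the others, and the fibroblast covariate) were chosen after seeing the data.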

Additional observations from a re-analysis of the deposited data

Results flagged for a closer look

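Among the always-named members, Ccne1 and the median over the 46 members, 22 of 216 group values had 1 animal far from the others of its group (chance flags about 5 percent). No explanation was tested. Values are log2 signals unless stated.

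Low-dose pioglitazone female day 28 replicate 5, the array of median correlation 0.861, was lowest in its group for Mcm2 (7.40; median of the others 9.41), Ccne1 (5.73; 8.09), Cdk1 (8.23; 9.34) and Pcna (10.06; 11.03), and its median deviation over the members was -0.88 (others 0.08). Low-dose female day 3 replicate 2 was lowest in that median at -0.15 (others 0.25). Low-dose male day 3 replicate 2 was highest for Ccnd1 (11.21; 10.11), and low-dose male day 90 replicate 1 lowest for Top2a (4.51; 5.77).

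Among vehicle animals, female day 28 replicate 1 was highest for Ccnb1 (6.89; 6.01) and Pcna (11.23; 10.79), female day 3 replicate 3 highest for Cdk1 (10.77; 9.12), and male day 3 replicate 4 lowest for Ccnd1 (9.99; 10.59).

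With high-dose pioglitazone, Cdk1 was highest in female day 3 replicate 5 (9.87; 8.94), lowest in female day 90 replicate 5 (7.76; 8.99) and highest in male day 90 replicate 5 (9.01; 8.38). Pcna was lowest in male day 28 replicate 4 (9.96; 10.80).

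With rosiglitazone, Top2a was highest in female day 3 replicate 5 (7.48; 5.12), the animal without which 3 members were called at day 3. Mcm2 was lowest in female day 28 replicate 4 (8.53; 9.36) and Rrm2 highest in female day 28 replicate 2 (10.03; 8.35). Ccnd1 was highest in female day 90 replicate 1 (12.19; 10.60), the member median in female day 90 replicate 2 (0.53; -0.29), and Pcna in male day 3 replicate 3 (11.17; 10.74).

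The effect of high-dose pioglitazone on Rrm1 at day 3 differed between the sexes by -1.61 (female minus male, adjusted p = 0.0120, limma), a difference that was not called without female replicate 3.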

How the results depend on the processing

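Counts are members called, under 14 alternative settings and 116 fits that each left out 1 animal; the cause of a changed count was not tested. The 75th percentile centring, the fit without a variance trend, no filter, quantile normalization and robust variances moved no count by over 1.5 times. Nor did the replicate block, which gave 12 and 17 members lower in vehicle at days 28 and 90 beside 12 and 19. That block shared a number across sexes and days, and cannot show whether numbers pair the animals of a day.

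Array weights raised the vehicle counts to 23 at day 28 and 31 at day 90, and to 55 from 25 within sex. They gave 2 for the vehicle sexes, 69 instead of 32 for treated animals between days, 8 across days, 6 for sex differences, 32 instead of 4 within sex and day, and 6 for the dose at day 3. Against vehicle they gave 4 over all days, 2 at day 28 and 6 at day 90 at the high dose, 7, 3 and 8 at the low dose, and 5, 2 and 5 with rosiglitazone, and 10 with rosiglitazone at day 3. With the failing arrays included the vehicle counts were 5 and 7, and 3 within sex. The Ccne1 counts at day 90 and over all days were 0 at both doses, rosiglitazone over all days and the sex differences 0, the high dose at day 3 2, the dose at day 3 6, and within sex and day 10. Among all genes, 131 and 102 were then called in vehicle at days 28 and 90. For the high dose at day 3 the number was 846, and for the dose at day 3 1964. Over all days it was 303 at the high dose, 62 at the low dose and 136 with rosiglitazone. At day 90 it was 73 at the high and 17 at the low dose. With the lowest 50 percent left out the counts were 4 and 7 in vehicle, 8 within sex, 13 for treated animals between days, 2 within sex and day, 1 for rosiglitazone over all days and 0 for sex differences. There 592 and 684 genes were called in vehicle, and 629 with rosiglitazone over all days. With only the groups compared in the fit, vehicle at day 28 gave 3, vehicle within sex 0, treated animals between days 14, sex differences 0, the high dose at day 90 2 and the low dose 4. Genes called were 145 in vehicle at day 28, and 1191 at the high and 480 at the low dose at day 90. Averaging probes gave 2 within sex and day, 2 at the high dose over all days and at day 90, and 1 for rosiglitazone at day 90. At the high dose 811 and 518 genes were called, and 243 with rosiglitazone. The fibroblast covariate gave 3 at the high dose over all days and 4 at day 90, 0 at the low dose over all days and 1 at day 28, and 1 for rosiglitazone at day 90. In the same order 1598, 1286, 268, 70 and 545 genes were called. Without the 2 arrays under 0.9 the low dose over all days gave 3, and rosiglitazone 1 at day 28 and 1 at day 90. Genes called there were 667, 316 and 505. Without the 9 arrays under 0.95 the high dose gave 4 over all days, 1 at day 28 and 3 at day 90, the low dose 3, 2 and 2, and rosiglitazone 5, 1 and 2.

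Leaving out 1 animal gave 8 to 20 and 14 to 23 in vehicle at days 28 and 90, 6 to 38 within sex, 22 to 43 for treated animals between days, 0 to 4 for sex differences, 1 to 7 within sex and day, and 0 to 2 for the dose at day 3. It gave 1 to 3 over all days and 1 to 2 at day 90 at the high dose, 0 to 1 at the low dose at day 90, and 1 to 3 over all days, 0 to 3 at day 3 and 0 to 1 at day 90 with rosiglitazone.

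The sign turned in 5 cases. With the failing arrays included, high-dose animals had E2f1 0.19 and Mcm4 0.55 at day 28 and Mcm4 0.38 at day 90 relative to day 3, and Rrm1 in high-dose females at day 3 was 0.0055 against vehicle. With probes averaged, Mcm4 in high-dose animals was 0.0135 at day 28. Scrapings differed in stromal markers, intervals at a single day reached past 2-fold for some members, and Mki67 was not measured.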
